A study of Mus musculus with 192 samples.

Results

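The comparison described here set zQ175 mice given the siRNA mixture HTT-634.486 against zQ175 mice given a non-targeting control siRNA (NTC), both in the regimen written 6[4]10. It used 16 of the 192 libraries of the series, 8 per group, picked by matching the columns of the deposited gene count table to the library names, and it covered all 16374 genes that passed the filter on low counts. The measurement was polyA-selected RNA sequencing of whole hippocampus, 1 library per mouse. HTT-634.486 mice carried the zQ175 allele, received the siRNAs HTT-634 and HTT-486 together at 6 months of age and were killed at 10 months. NTC mice had the same genotype, ages and schedule, and each group held 4 females and 4 males. Also used were 8 wild-type (WT) mice given HTT-634.486, 8 WT mice given NTC, 8 untreated zQ175 mice and 8 untreated WT mice of the same regimen. The fit also took in the regimen's 16 mice given the siRNA HTT-10150, 8 zQ175 and 8 WT; in 2 of these libraries the sex-specific transcripts went against the labelled sex, and leaving those 2 out moved the count of calls described below by less than 1.5 times. Later comparisons used zQ175 mice given HTT-634.486 and zQ175 mice given NTC, 8 each, in the regimens 2[4]6 (killed at 6 months) and 2.6[8]10 (killed at 10 months). The labels give neither dose, route of injection and siRNA sequences nor whether mice shared cages or litters.

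zQ175 is a knock-in line whose huntingtin gene, Htt, carries a long CAG repeat, so the mutant protein is made under the gene's own promoter. Long repeats favour a short transcript, HTT1a, that ends within the first intron and encodes only the exon 1 fragment of huntingtin, which aggregates readily. An siRNA loads one of its strands into an Argonaute protein and cleaves RNA that pairs with it, and the series names HTT1a as the target of HTT-634 and HTT-486. In the hippocampus, repeat-carrying neurons lose part of their region-specific expression with age, and microglia, the resident macrophages, read both tissue damage and foreign RNA.

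Full-length Htt is the first check of such a design. Htt (ENSMUSG00000029104, chromosome 5) stood at 118.9, 134.5 and 145.6 CPM (library-size scaled counts, with TMM factors; lowest, median and highest mouse) in HTT-634.486 mice, against 122.2, 137.9 and 164.7 CPM in NTC mice. The ranges overlapped almost whole. Means were 135.4 ± 8.79 CPM in HTT-634.486 mice and 141.6 ± 14.6 CPM in NTC mice (SD, n = 8 each), a difference of -6.21 CPM (exact two-sided permutation test, p = 0.332; the smallest p this design allows is 0.000155). In edgeR's fit across all genes the log2 change was -0.07 ± 0.13 (SE; adjusted p = 0.845). The gene count adds all Htt reads of a polyA library and does not separate HTT1a from the full-length mRNA, so the level of the targeted transcript was not measured by it.

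Choroid plexus carried over at dissection differed between the libraries and is given before the results that it could touch. Ttr, the thyroid hormone carrier that choroid plexus makes in great amounts, stood at 8.03, 214 and 4433 CPM in HTT-634.486 mice, against 23.05, 30.3 and 2974 CPM in NTC mice. Folr1, its folate receptor, stood at 0.374, 2.15 and 33.2 CPM in HTT-634.486 mice, against 0.285, 0.736 and 22.8 CPM in NTC mice. Both genes were high in the same 4 libraries, those of females 1 and 2 and male 4 given HTT-634.486 and of male 4 given NTC, where the summed level of 22 choroid plexus markers was 20.8, 22.5, 10.95 and 14.8 times the median of the regimen's 64 libraries. The means on the log2 CPM scale were 8.16 ± 3.28 for HTT-634.486 and 5.89 ± 2.38 for NTC for Ttr (exact permutation p = 0.131), and 1.87 ± 2.47 for HTT-634.486 and 0.15 ± 1.84 for NTC for Folr1 (exact permutation p = 0.12; SD, n = 8 each). Without NTC male 4 the differences were 3.07 for Ttr and 2.34 for Folr1 (exact permutation p = 0.0351 and 0.0305), and without HTT-634.486 male 2 that of Ttr was 2.998 (exact permutation p = 0.0451). Summed markers ran from 255 to 7749 CPM (median 600) in HTT-634.486 mice and from 281 to 5091 CPM (median 357) in NTC mice.

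**Figure D1:**
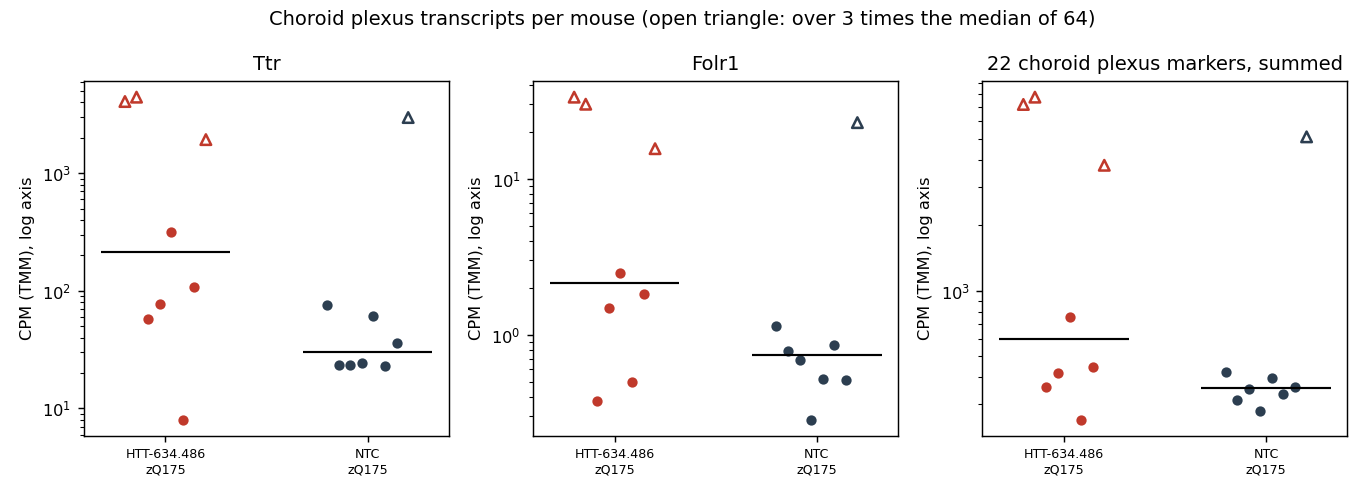
CPM on a log axis of Ttr, of Folr1 and of the 22 choroid plexus markers summed, per mouse, with HTT-634.486 left of NTC; horizontal bars are medians and open triangles mark the libraries over 3 times the median of the 64 libraries. The 3 triangles of HTT-634.486 and the 1 of NTC stand far above the other mice of both groups.

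All 22 choroid plexus markers were higher in HTT-634.486 mice at an unadjusted p under 0.05, with a median log2 change of 2.13, and 0 of them passed the adjusted threshold in edgeR. That median was 0.14 without the 4 choroid-high libraries and -0.09 with the level of Ttr and Folr1 as a covariate. Of 15 markers of meninges and fibroblasts, which adhere to the same tissue, 14 were higher, 7 at an unadjusted p under 0.05, and 0 passed, with a median of 0.57 (0.13 without those libraries). Of all genes tested, 0.910% tracked Ttr and Folr1 in the 48 libraries of the regimen outside this comparison, and their median log2 change here was 0.60. Of the 157 genes called below, 0 were among them. At a share of 0.910% few would be looked for among 157. Such genes also differ so widely between libraries that even the 22 markers did not pass. The 0 therefore does not show that the calls are free of carry-over. In bulk tissue, fewer cells of a type and less RNA per cell cannot be told apart, here or for any gene below.

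HTT-634.486 mice differed from NTC mice in a limited set of genes, mostly by small amounts. At a Benjamini-Hochberg adjusted p under 0.05, edgeR's quasi-likelihood test called 157 genes (0.959% of those tested), of which 45 were raised (0.275%) and 112 lowered (0.684%). At an unadjusted p under 0.05 stood 16.9% of all genes tested, 8.12% higher and 8.81% lower, and 53% were higher at any p. Raised genes had a median log2 change of 0.43, lowered genes one of -0.17, and all genes tested one of 0.01. At least a 2-fold change was reached by 2 raised genes, Clec7a and Lyz2, and by no lowered gene. All 157 had the same sign in females and in males, in a fit with a separate term for each sex within each group. The genes were called on these same mice, so such agreement is largely built in. In 9 of the raised genes every HTT-634.486 mouse lay above every NTC mouse, and in 20 of the lowered genes every one lay below; over all genes tested, such a separation occurred in 49 (0.299%), 0.0855% above and 0.214% below. Without the 4 choroid-high libraries, which left 5 HTT-634.486 and 7 NTC mice, 15 genes were called, all of them among the 157. All 157 kept their direction there, and the median ratio of the log2 change without these libraries to that with them was 0.983. The remaining mice are among those on which the genes were called, so this too is largely built in.

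The count depended on single mice. Leaving out 1 mouse gave 55 to 467 calls, and the count moved by more than 1.5 times for 8 of the 16 mice. Those were HTT-634.486 female 1 (69 calls without it), female 2 (55), male 3 (56) and male 4 (467), and NTC female 2 (97), male 2 (73), male 3 (90) and male 4 (101). With the number in the library name as a block, the meaning of which the labels do not give, 22 genes were called. Of 29 called genes followed under the alternatives, 22 were no longer called there, among them C1qa (0.48, edgeR adjusted p = 0.0759), C1qb (0.41, 0.0823), Clec7a (1.42, 0.0549), Lyz2 (1.10, 0.0738), Csf1r (-0.21, 0.132), Svip (-0.27, 0.0549), Sst (0.25, 0.121) and Bok (0.27, 0.19). The 7 still called were Lag3, Abhd3, Kirrel, Magt1, 2610002M06Rik, 0610010F05Rik and Bnip3l.

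Among the raised genes were several that microglia express. Lag3 (ENSMUSG00000030124, chromosome 6, 124904361 to 124911705, GRCm38), an inhibitory immune receptor that microglia express, stood at 7.34, 9.86 and 10.9 CPM in HTT-634.486 mice, against 4.63, 5.95 and 7.98 CPM in NTC mice. Only the low end of the treated range, male 4, reached into that of NTC. The log2 change was 0.66 ± 0.12 (edgeR, adjusted p = 0.00248), and Lag3 was called under each of the 28 alternatives computed for it, which do not include the sexes alone. C1qa and C1qb, 2 chains of the first complement component, which microglia make in the brain, rose with it. C1qa stood at 50.2, 64.4 and 80.3 CPM in HTT-634.486 mice, against 37.9, 45.5 and 49.99 CPM in NTC mice, with no overlap and a log2 change of 0.54 ± 0.11 (edgeR, adjusted p = 0.0112). C1qb stood at 39.9, 51.8 and 59.6 CPM in HTT-634.486 mice, against 33.95, 37.8 and 43.9 CPM in NTC mice, where again only male 4 of the treated mice fell within the NTC range (log2 change 0.43 ± 0.10, edgeR adjusted p = 0.0184). Without female 2 given HTT-634.486, C1qb had 0.41 and was not called (edgeR, adjusted p = 0.0514).

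The 2 genes past a 2-fold change were Clec7a and Lyz2. Clec7a, the beta-glucan receptor dectin-1 that appears on microglia near damage, stood at 1.17, 1.98 and 3.12 CPM in HTT-634.486 mice, against 0.442, 0.802 and 1.04 CPM in NTC mice. All 8 treated mice lay above all NTC mice (log2 change 1.46 ± 0.30, edgeR adjusted p = 0.00974). Lyz2, a lysozyme of macrophages, stood at 12.998, 16.6 and 26.4 CPM in HTT-634.486 mice, against 5.59, 7.06 and 12.5 CPM in NTC mice, again without overlap (1.11 ± 0.25, edgeR adjusted p = 0.0149); it has a near-identical copy, Lyz1, between which estimated counts can be split. Without female 2 given HTT-634.486, Lyz2 had 0.99 and was not called (edgeR, adjusted p = 0.0514). Among genes singled out after their values were seen, Slamf9, a receptor of the SLAM family (0.76 ± 0.20), Adgre1, the macrophage marker F4/80 (0.43 ± 0.10), and Ptger4, a prostaglandin E2 receptor (0.65 ± 0.16), also rose.

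Not all microglial genes went that way. Csf1r, the receptor for the growth factors on which microglia depend, stood at 74.7, 78.3 and 92.3 CPM in HTT-634.486 mice, against 88.7, 95.8 and 100 CPM in NTC mice. Of the treated mice, male 4 alone lay within the NTC range, and the log2 change was -0.25 ± 0.05 (edgeR, adjusted p = 0.0112). Ptafr, the receptor for platelet-activating factor, singled out after its values were seen, stood at 1.01, 1.42 and 1.56 CPM in HTT-634.486 mice, against 1.66, 1.85 and 2.46 CPM in NTC mice, without overlap (-0.52 ± 0.13, edgeR adjusted p = 0.0268).

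**Figure D2:**
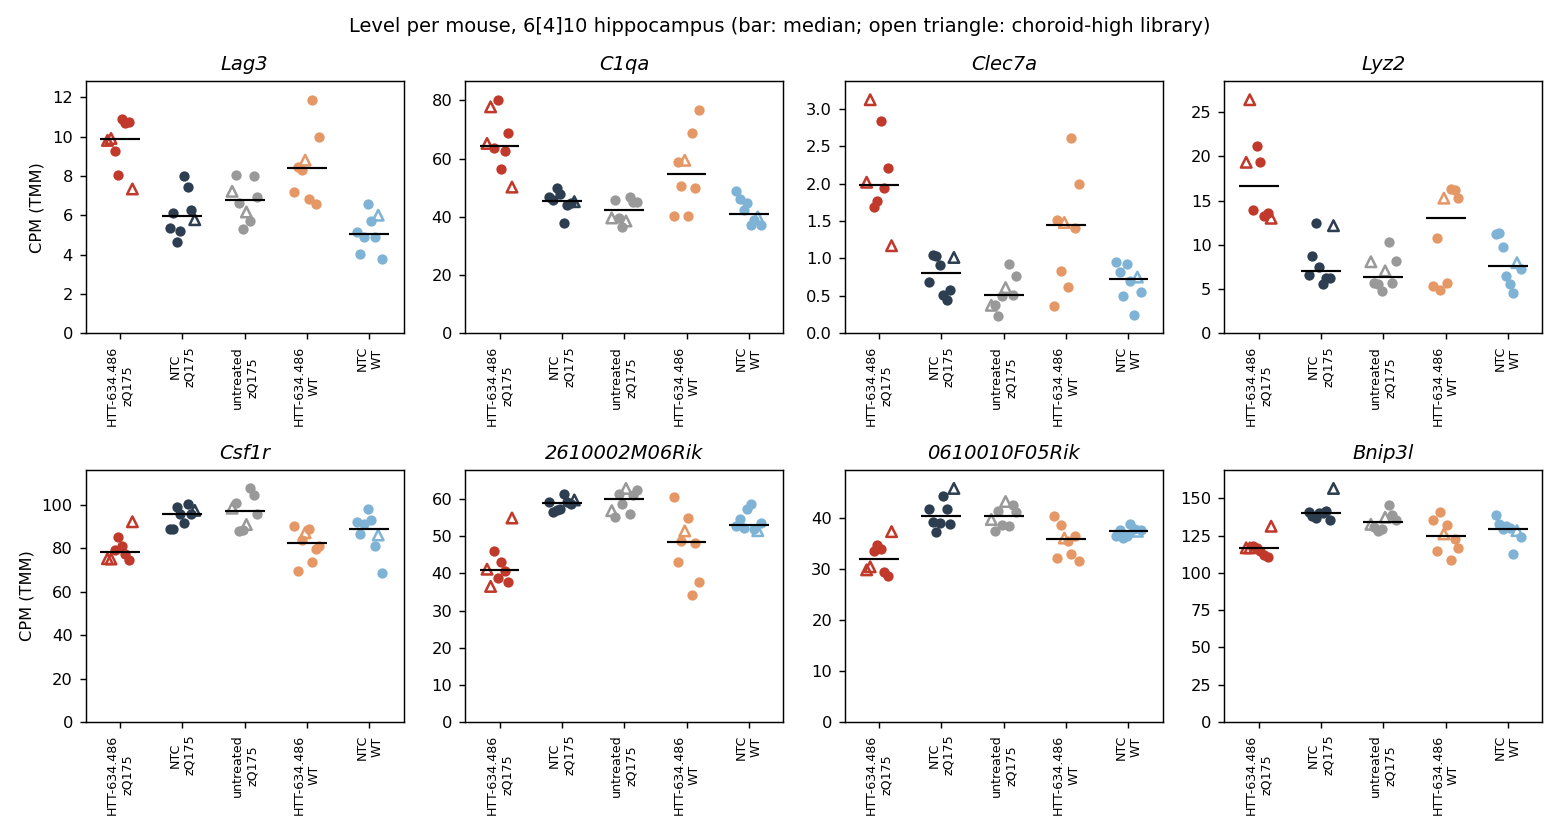
CPM of 8 genes per mouse in the 6[4]10 regimen, zQ175 mice given HTT-634.486, given NTC and untreated, then WT mice given HTT-634.486 and given NTC; bars are medians and open triangles mark choroid-high libraries. Lag3, C1qa, Clec7a and Lyz2 are higher and Csf1r, 2610002M06Rik, 0610010F05Rik and Bnip3l lower in zQ175 mice given HTT-634.486 than in those given NTC, whose medians for Lag3 were 9.86 and 5.95 CPM.

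Taken by list, 20 homeostatic microglial genes were tested, of which 3 rose (Lag3, C1qa, C1qb) and 1 fell (Csf1r), with a median log2 change of -0.02 against 0.01 over all genes. At an unadjusted p under 0.05, 6 members were higher and 1 lower. Members that were not called included P2ry12, the purinergic receptor of resting microglia, at -0.09 (edgeR, adjusted p = 0.509), Tmem119 at -0.08 (0.629) and Cx3cr1, the fractalkine receptor, at -0.03 (0.817). Tyrobp, the signalling adaptor of Trem2, had 0.46 (adjusted p = 0.0614) and Trem2 itself 0.27 (0.223). Of 16 genes of activated microglia, 2 rose (Clec7a, Lyz2) and all 16 had a positive change, with a median of 0.26. At an unadjusted p under 0.05, 7 of the 16 were higher and 0 lower. Over all genes tested, 0.275% were called raised and 0.684% lowered, 53% were higher, and 8.12% were higher at that p. Cst7, a cysteine protease inhibitor of that state, had 1.68 ± 0.50 and did not pass (edgeR, adjusted p = 0.0755). Of 17 complement genes 2 rose (C1qa, C1qb), with a median of 0.39. In that list 14 were higher, 8 of them at an unadjusted p under 0.05, and 3 were lower.

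The choroid values move with these lists. With the mean log2 CPM of Ttr and Folr1 as a covariate, 4, 2 and 2 members were called in the homeostatic, activated and complement lists, as before, while the complement median became 0.12 and that of the activated list 0.16. Without the 4 choroid-high libraries, 1, 0 and 0 members were called and the medians were -0.04, 0.19 and 0.15. Lag3 was the member called there (0.69 ± 0.14, edgeR adjusted p = 0.0209), and Clec7a had 1.497 ± 0.34 (edgeR, adjusted p = 0.0523).

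Lists of interferon response (23 tested, median 0.07), of RNA sensing and RNA interference (20 tested, 0.02) and of antigen presentation (16 tested, 0.22) held 0 called genes in edgeR. At an unadjusted p under 0.05 they held 2, 3 and 5 members, against 16.9% of all genes tested. All 16 antigen presentation genes were higher, as were 53% of all genes tested, and the 5 were among the higher ones. Against untreated zQ175 mice, 2 of the 16 were called raised in edgeR. Astrocyte genes (18 tested, median 0.04) held 0 called genes and 3 at an unadjusted p under 0.05, and Gfap, the filament protein of reactive astrocytes, had 0.22 ± 0.08 (edgeR, adjusted p = 0.145). Myelin, precursor, endothelial and mural cell lists held 0 called genes in edgeR and 2, 0, 0 and 1 at an unadjusted p under 0.05, with medians between -0.04 and 0.02.

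The other named genes that rose are given with their changes. Col11a1 and Col27a1, fibrillar collagens, changed by 0.48 ± 0.12 and 0.47 ± 0.12, Kirrel, a cell adhesion protein, by 0.53 ± 0.12, and Epb41l5, a band 4.1 protein, by 0.46 ± 0.11. Gpx3, the secreted glutathione peroxidase, changed by 0.64 ± 0.16 and Aspg, an asparaginase, by 0.51 ± 0.13. The transcripts 9430038I01Rik and Gm26648 changed by 0.46 ± 0.11 and 0.45 ± 0.11. In these 8 genes the adjusted p of edgeR lay between 0.0149 and 0.0409, and Aspg alone of them showed no overlap between the groups. Except for Kirrel, each lost its call without single mice. For 9430038I01Rik these were HTT-634.486 female 2 and NTC males 2 and 3, for Gpx3 HTT-634.486 females 1 and 2 and male 3 and NTC female 2 and male 2. For Col27a1 they were HTT-634.486 female 1 and males 1 and 3 and NTC males 2 and 3, for Gm26648 HTT-634.486 females 1 and 2 and males 1 and 3 and NTC males 3 and 4. For Epb41l5 they were HTT-634.486 females 1 and 2 and NTC females 1, 2 and 4 and male 2. For Aspg they were HTT-634.486 females 1 and 2 and males 1, 2 and 3 and NTC females 1 and 4 and males 2, 3 and 4, and for Col11a1 HTT-634.486 females 1 and 3 and males 1, 2 and 3 and NTC females 1, 2 and 3 and males 3 and 4. Among these fits the adjusted p of edgeR ran up to 0.128, reached by Col11a1 without HTT-634.486 male 3 (0.39). Without the choroid-high libraries none of the 8 genes, Kirrel included, was called. There Kirrel had 0.39 (edgeR, adjusted p = 0.224), Gpx3 0.45 (0.268) and Epb41l5 0.28 (0.353). Aspg had 0.50 (0.184), 9430038I01Rik 0.38 (0.195) and Gm26648 0.40 (0.188). Col11a1 and Col27a1 had larger changes, 0.59 (0.0523) and 0.55 (0.0634).

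Abhd3, a phospholipase that acts on medium-chain phosphatidylcholines, was also singled out after its values were seen. It stood at 47.0, 49.7 and 51.5 CPM in HTT-634.486 mice, against 32.9, 40.2 and 44.6 CPM in NTC mice, with no overlap and a log2 change of 0.31 ± 0.05 (edgeR, adjusted p = 0.00136). Untreated zQ175 mice lay between, at 37.2, 44.4 and 48.3 CPM.

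On the lowered side the changes were smaller and the genes more abundant. The median level was 6.25 on the log2 CPM scale for lowered genes, against 2.93 for raised genes and 4.203 for all genes tested. Abundant genes were more often lower in general. Among all 2886 genes tested in the middle range of the lowered genes' abundance, 35.3% were higher, with a median log2 change of -0.03. 2610002M06Rik (ENSMUSG00000031242, chromosome X, 107782751 to 107816334) stood at 36.5, 40.9 and 54.9 CPM in HTT-634.486 mice, against 56.6, 58.9 and 61.4 CPM in NTC mice. The groups did not overlap, with a log2 change of -0.47 ± 0.07 (edgeR, adjusted p = 2.46e-05). 0610010F05Rik stood at 28.7, 31.9 and 37.3 CPM in HTT-634.486 mice, against 37.1, 40.4 and 45.8 CPM in NTC mice, where the highest treated mouse just reached the lowest NTC mouse (-0.35 ± 0.05, edgeR adjusted p = 2.46e-05). Bnip3l, the mitophagy receptor NIX, stood at 110.4, 116.7 and 131.3 CPM in HTT-634.486 mice, against 135.4, 140.5 and 156.7 CPM in NTC mice, without overlap (-0.27 ± 0.04, edgeR adjusted p = 5.12e-05).

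The other named lowered genes changed by between -0.41 and -0.25. Svip, an inhibitor of endoplasmic reticulum-associated degradation, changed by -0.29 ± 0.05, Magt1, a subunit of the oligosaccharyltransferase that also carries magnesium, by -0.37 ± 0.09, and Hspa13, a chaperone of the Hsp70 family, by -0.25 ± 0.06. Camkk2, the calcium-calmodulin kinase that activates AMPK and CaMKI and CaMKIV, stood at 74.55, 90.5 and 95.1 CPM in HTT-634.486 mice, against 92.4, 109.5 and 112.75 CPM in NTC mice (-0.28 ± 0.07, edgeR adjusted p = 0.0264). Ipcef1 changed by -0.32 ± 0.07, Ppl, a plakin of the cytoskeleton, by -0.41 ± 0.10, Ell2, a transcription elongation factor, by -0.27 ± 0.06, and Sass6, a centriole protein, by -0.27 ± 0.07. Calls again ended without single mice, Ell2 and Ipcef1 without HTT-634.486 female 2, and Camkk2 without HTT-634.486 females 1 and 2 and male 3 and NTC males 2 and 3. For Magt1 these were HTT-634.486 females 3 and 4 and males 1 and 3 and NTC female 3 and males 3 and 4, for Ppl HTT-634.486 females 1 and 2 and males 1 and 3 and NTC females 2 and 3. For Sass6 they were HTT-634.486 females 1, 2 and 4 and males 2 and 3 and NTC females 1 and 3 and males 2, 3 and 4. In these fits edgeR's adjusted p reached 0.109 for Sass6 (-0.25, without HTT-634.486 female 1). Without the choroid-high libraries Svip and Magt1 were still called, while Hspa13, Camkk2, Ipcef1, Ppl, Ell2 and Sass6 were not. Among genes singled out after their values were seen, Isca1, an iron-sulfur cluster assembly protein (-0.19 ± 0.03), Rnf6, a ubiquitin ligase (-0.20 ± 0.04), Tsnax, the partner of translin (-0.13 ± 0.03), and Smc1a and Smc3 of cohesin (-0.17 ± 0.03 and -0.14 ± 0.03) also fell. It is not stated whether the counting used strand, so reads cannot be told apart where genes overlap on opposite strands. Such an overlap with a protein-coding gene is annotated for Csf1r, 2610002M06Rik, Ipcef1, Sass6, Gm26648, Ptger4, Cldn22, Rgs11, Ldhd, Eme2, Rnf141, Pcmt1 and Folr1. One with a noncoding gene or pseudogene is annotated for Kirrel, Aspg, Ell2, Hspa13, Htr3a, Isca1, Tsnax, Smc1a, Gga2, Unc13b, Gfap and Aftph. An overlap with a protein-coding gene on the same strand, which strand cannot separate, is annotated for Htt, Isca1, Ccdc47, Eme2 and Hist1h1e.

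Lowered genes were poor in GC. Their longest transcripts had a median GC content of 43.6%, against 52.6% for raised genes and 49.8% for all genes tested. Genes under 40% GC had a median log2 change of -0.04 (989 genes; 0 raised and 19 lowered) and genes over 55% GC one of 0.04 (3714 genes; 14 raised and 0 lowered). In the same way the fitted trend, the log2 CPM at 55% GC minus that at 40%, ran from -0.02 to 0.15 (median 0.04) in HTT-634.486 mice and from -0.15 to 0.03 (median -0.02) in NTC mice. After each library's GC trend had been removed, 86 genes were called, 35 raised and 51 lowered, which kept 80 of the 157. All 157 kept their direction, in the same libraries on which they were called. The changes of Lag3 (0.61), C1qa (0.49), Clec7a (1.501) and Csf1r (-0.27) were called there as well.

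**Figure D3:**
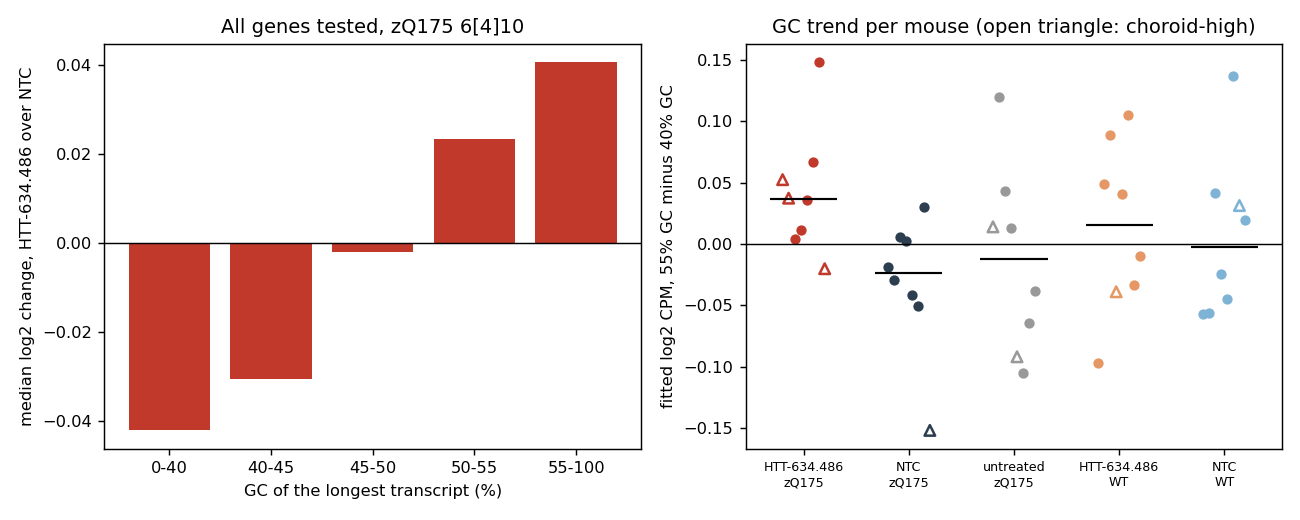
Left, median log2 change of HTT-634.486 over NTC for all genes tested in 5 classes of transcript GC content; right, the GC trend of each library as log2 CPM at 55% minus that at 40% GC, with bars at the median and open triangles for choroid-high libraries. The median change climbs with GC content and the HTT-634.486 libraries sit higher than the NTC libraries, with medians of 0.04 and -0.02.

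Lowered genes also had long 3′ untranslated regions, with a median of 2473 bases, against 864.5 bases for raised genes and 1357 bases for all genes tested that have one annotated. Within the middle range of the lowered genes' abundance, the 56 lowered genes had a median of 2573.5 bases and all 2886 genes tested one of 1838 bases. In 14 genes the call stood both without the choroid-high libraries and after removal of the GC trend. They were raised Lag3 and Abhd3 and lowered 2610002M06Rik, 0610010F05Rik, Bnip3l, Svip, Isca1, Rnf6, Rnf141, Tsnax, Smc1a, Ccdc47, Rufy3 and Fam32a.

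Among neuronal lists few members passed. Sst, the somatostatin of an interneuron class, stood at 165.4, 181.6 and 218.1 CPM in HTT-634.486 mice, against 133.01, 145.72 and 173 CPM in NTC mice, with ranges that overlapped at their ends (0.31 ± 0.07, edgeR adjusted p = 0.0231). The call for Sst ended without HTT-634.486 male 3 (0.26, adjusted p = 0.0969), NTC female 2 (0.29, 0.0568) or NTC male 4 (0.29, 0.0531). Htr3a, the ionotropic serotonin receptor of another class, rose by 0.38 ± 0.09 (adjusted p = 0.0149), and the other 17 interneuron genes tested did not pass. Bok, a BCL-2 family protein of CA3 neurons, stood at 34.1, 36.4 and 44.3 CPM in HTT-634.486 mice, against 25.3, 28.3 and 36.9 CPM in NTC mice (0.36 ± 0.08, edgeR adjusted p = 0.0112) and was the 1 of 18 genes of CA2 and CA3 to pass. Dentate granule cell (18 tested), CA1 (13), activity-regulated (27), glutamate receptor (32) and GABA-A receptor (16) lists held 0 called genes in edgeR and 2, 3, 0, 3 and 5 at an unadjusted p under 0.05 (16.9% over all genes tested), with medians between -0.09 and 0.04. All 10 clustered protocadherins tested were lower, as were 47% of all genes tested. Of the 10, 7 were lower at an unadjusted p under 0.05, against 8.81% of all genes, and 0 were called in edgeR, with a median of -0.18. Psmc1 was the 1 of 31 proteasome genes called (-0.11 ± 0.03). The Htt partners (17 tested), mismatch repair (14), autophagy (24), chaperone (25) and oxidative phosphorylation (32) lists held 0 called genes in edgeR and 2, 3, 4, 6 and 4 at an unadjusted p under 0.05, against 16.9% of all genes tested, with medians between -0.06 and 0.01.

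The next question was how far the changes ran against the effect of the zQ175 allele itself. Untreated zQ175 mice differed from untreated WT mice in 1890 genes (11.5%), 876 raised (5.35%) and 1014 lowered (6.19%), in mice outside the present comparison. Of the 45 genes raised by HTT-634.486, 10 were called lower with the allele and 0 higher; of the 112 lowered, 15 were called higher with it and 3 lower. The 10 were Bok, Cldn22, a claudin, Rgs11, a regulator of G-protein signalling, Ldhd, the D-lactate dehydrogenase, Sst, Htr3a, Abhd3, Eme2, Unc13b and Gga2. Of these, 5 were not called against untreated zQ175 mice, and HTT-634.486 over untreated was 0.22 for Bok, 0.18 for Cldn22 (0.69 over NTC), 0.11 for Htr3a (0.38 over NTC), 0.07 for Unc13b (0.21 over NTC) and 0.09 for Gga2 (0.17 over NTC), with edgeR adjusted p between 0.0842 and 0.514. The 3 lowered genes that were also lower with the allele were Camkk2, Isca1 and Pcmt1. Bok lost 1.05 on the log2 scale with the allele, written -1.05 ± 0.08, so its change of 0.36 with HTT-634.486 was smaller than the allele's effect; WT mice given HTT-634.486 had 55.1, 71.8 and 77.1 CPM and WT mice given NTC 50.7, 59.8 and 67.7 CPM. Lag3 (0.08), C1qa (0.01) and Clec7a (0.11) showed no called effect of the allele in untreated mice (edgeR, adjusted p = 0.749, 0.985 and 0.897).

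A score over the 2326 genes of the allele's signature, fitted on untreated mice alone, was computed per mouse. It is the mean log2 difference from WT NTC mice, signed by the allele's effect, in percent of the mean of zQ175 NTC mice. It was 75.6, 84.9 and 108 percent in HTT-634.486 mice, against 90.8, 97.02 and 117 percent in NTC mice. The means were 88.2 ± 10.2 percent and 100 ± 9.20 percent (SD, n = 8 each), and the ranges overlapped. The 3 choroid-high HTT-634.486 mice had the highest scores of their group, 91.1 to 108 percent, and the choroid-high NTC mouse that of its own. Among the others, 5 HTT-634.486 mice ran from 75.6 to 86.1 percent and 7 NTC mice from 90.8 to 111 percent, with no overlap. That split takes out the 3 highest treated scores and the highest NTC score. The difference in score between the groups was not tested, with or without these mice. Untreated zQ175 mice, which helped define the signature, ran from 89 to 104.6 percent, with a mean of 95.44 ± 4.792 percent (SD, n = 8). Scores also varied without the allele, from -20.4 to 30.2 percent in WT mice given HTT-634.486. The highest of these was female 4, the choroid-high library of that group, and the next was male 2 at 8.21 percent. Untreated WT mice, which helped define the signature, had a mean of -9.93 ± 7.39 percent (SD, n = 8). Of the signature genes, 948 raised and 1378 lowered with the allele, 59.3% changed against the allele's effect with HTT-634.486. Over all genes tested, 53% were higher and 47% lower. The share among genes of like abundance or GC content was not computed. Within the signature, the median log2 change was -0.03 for genes raised with the allele and 0.01 for those lowered, against 0.01 over all genes tested.

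**Figure D4:**
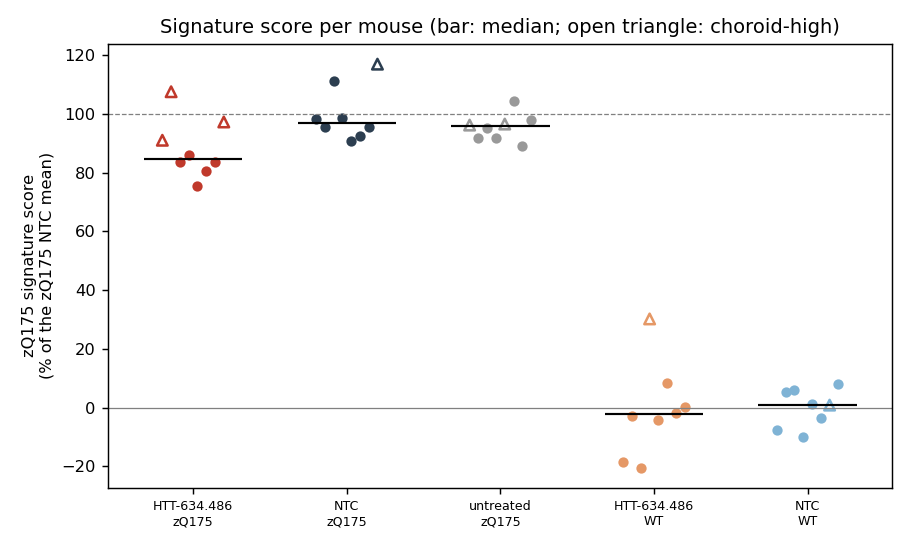
Score of the zQ175 signature per mouse in percent of the zQ175 NTC mean, for zQ175 mice given HTT-634.486, given NTC and untreated and for WT mice given HTT-634.486 and NTC; bars are medians and open triangles mark choroid-high libraries. The zQ175 medians are 84.9 percent with HTT-634.486 and 97.02 percent with NTC, and the WT medians are -2.28 percent with HTT-634.486 and 1.04 percent with NTC.

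WT mice, which lack the expanded repeat, were given the same siRNAs. In 8 WT mice given HTT-634.486 against 8 given NTC, none of them part of the zQ175 comparison, edgeR called 4 genes (0.0244%), all raised, and 1259 had an unadjusted p under 0.05. They were Lag3 (0.73 ± 0.12, adjusted p = 0.00369), Abhd3 (0.27 ± 0.05, 0.0252), Gabrr2, a subunit of GABA-C receptors (1.39 ± 0.25, 0.00562), and Fam234a (0.43 ± 0.08, 0.0149). Lag3 stood at 8.40 CPM in WT mice given HTT-634.486 and at 5.04 CPM in those given NTC (medians). Of the 45 genes raised in zQ175 mice, 39 were higher in WT mice and 2 were called; of the 112 lowered, 96 were lower and 0 were called. Over all genes tested, 52.4% were higher, and the share among genes as abundant as the lowered ones was not computed. The median log2 change in WT mice was 0.14 over the 45 and -0.04 over the 112.

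The difference between the genotypes was tested directly. No gene passed for it in edgeR or in DESeq2 (0 calls in each), and 1013 genes had an unadjusted p under 0.05 in edgeR. The genes of smallest adjusted p were Aftph, a protein of clathrin trafficking, at -0.22 ± 0.05, Amd1, an enzyme of polyamine synthesis, at -0.26 ± 0.06 and Hist1h1e, a linker histone, at -1.47 ± 0.34, zQ175 change minus WT change (adjusted p = 0.341 for all 3). For C1qa the difference was 0.12 ± 0.16 and for Csf1r -0.15 ± 0.07. So a call in zQ175 mice and none in WT mice does not show a difference between them.

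Other mice with the same allele were treated on other schedules. In the regimen 2.6[8]10, with treatment at 2 and 6 months and collection at 10 months, 323 genes were called (2.04%), 179 raised (1.13%) and the others lowered (0.908%). Of the 45 raised here 42 were higher there and 14 called, which are 31.1% of the 45 and 7.82% of the 179. Of the 112 lowered 109 were lower and 30 called, which are 26.8% of the 112 and 20.8% of those lowered there. None was called the other way. In 2[4]6, with 1 treatment at 2 months and collection at 6 months, 5 genes were called (0.0302%), 4 raised (0.0241%) and 1 lowered (0.00603%); 39 of the 45 were higher and 98 of the 112 lower there. Over all genes tested, 52.0% were higher in 2.6[8]10 and 48.8% in 2[4]6. Here too the share among genes as abundant as the lowered ones was not computed.

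Lag3 and Abhd3 were called raised in all 4 sets of mice, and Csf1r was called lowered in the 3 zQ175 sets. In 2.6[8]10 Lag3 changed by 1.11 ± 0.12 (edgeR, adjusted p = 4.99e-09), C1qa by 0.57 ± 0.11 (0.0014), Col11a1 by 0.88 ± 0.13 (9.7e-06) and Csf1r by -0.36 ± 0.06 (0.000191). Bnip3l changed by -0.29 ± 0.04 (edgeR, adjusted p = 1.4e-07) and 2610002M06Rik by -0.51 ± 0.07 (1.13e-06). Clec7a had 0.89 ± 0.33 and Lyz2 0.72 ± 0.25 there and did not pass (edgeR, adjusted p = 0.156 and 0.135). The test of the difference from 6[4]10 called 0 genes for either regimen in edgeR, with 692 genes at an unadjusted p under 0.05 for 2[4]6 and 618 for 2.6[8]10; DESeq2 called 0 and 1. Wfs1, a CA1 marker that falls with the allele, was among the smallest adjusted p, with 0.03 here against 0.67 in 2.6[8]10 (difference -0.63 ± 0.15, edgeR adjusted p = 0.4), as was Ddx1, an RNA helicase (-0.26 ± 0.05, adjusted p = 0.0684).

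**Figure D5:**
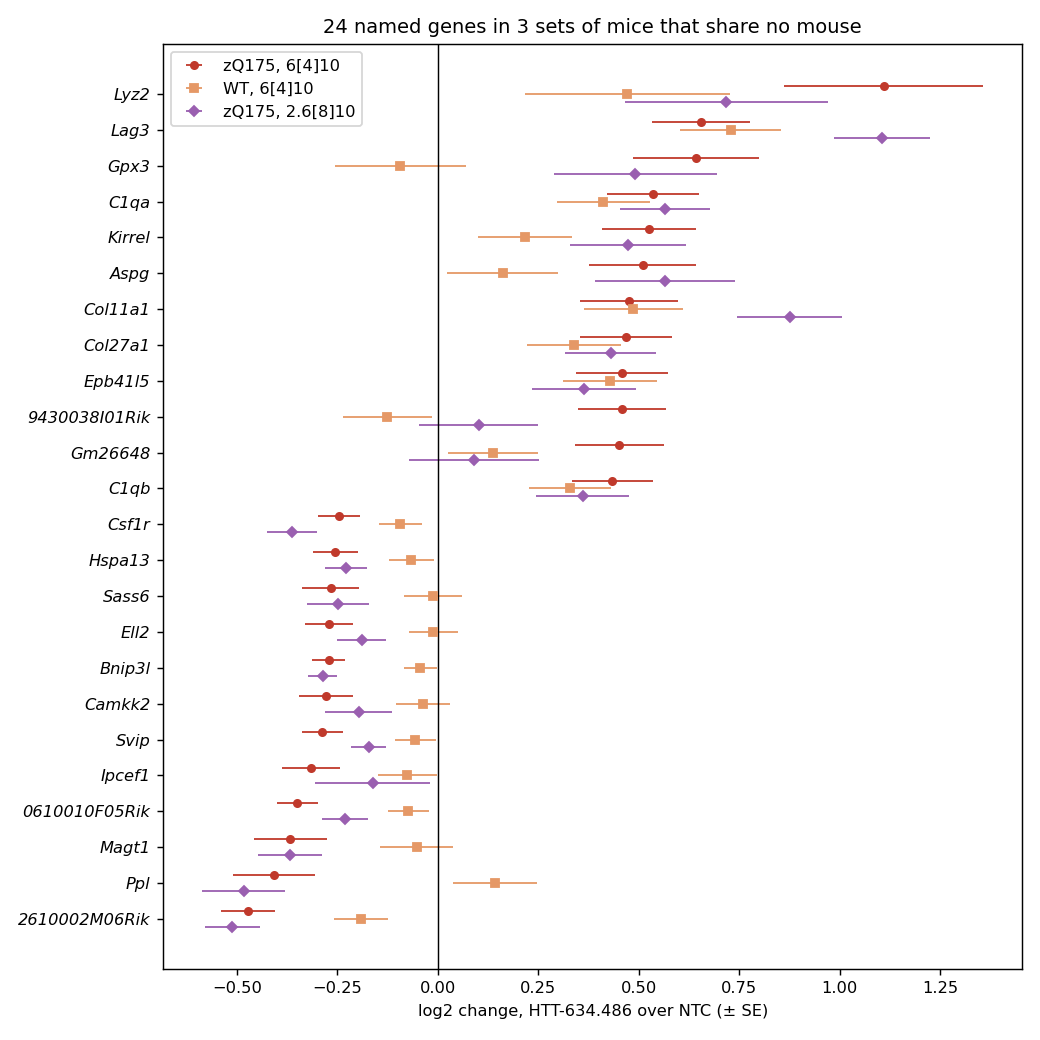
Log2 change of HTT-634.486 over NTC with its standard error for the 24 named genes in zQ175 mice of 6[4]10 (red), WT mice of 6[4]10 (orange) and zQ175 mice of 2.6[8]10 (purple), ordered by the change in the first. Lag3 lies at 0.66, 0.73 and 1.11 in the 3 sets, and the lowered genes lie nearer 0 in WT mice than in either zQ175 set.

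Females and males did not differ in a tested way. The interaction with sex called 0 genes in edgeR, with 667 at an unadjusted p under 0.05, and 1 in DESeq2. In that same fit, with a separate term for each sex within each group, 6 genes (0.0366%) were called in females and 2 (0.0122%) in males, with 4 mice a group. With the libraries of each sex fitted on their own, 6 were called in females and 1 in males.

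Untreated zQ175 mice served as a second reference, sharing the HTT-634.486 mice with the first. Against them 638 genes were called (3.9%), 139 raised (0.849%) and 499 lowered (3.05%), and without every choroid-high library of the regimen 44 were. NTC mice differed from untreated mice in 0 genes in edgeR, with 612 at an unadjusted p under 0.05. HTT-634.486 over untreated was 0.50 ± 0.12 for Lag3, 0.63 ± 0.11 for C1qa, 1.96 ± 0.31 for Clec7a, 1.33 ± 0.25 for Lyz2 and -0.28 ± 0.05 for Csf1r, all called. Many genes named above as called against NTC were not called against untreated mice. They were Kirrel (0.31), Col11a1 (0.26), Col27a1 (0.32), Epb41l5 (0.11), 9430038I01Rik (0.29), Gm26648 (0.32), Adgre1 (0.18), Ptger4 (0.44), Bok (0.22), Cldn22 (0.18), Htr3a (0.11), Unc13b (0.07), Gga2 (0.09), Ptafr (-0.34), Ipcef1 (-0.14), Ppl (-0.09), Sass6 (-0.12), Smc3 (-0.10) and Fam32a (-0.09), with edgeR adjusted p between 0.0772 for Gm26648 and 0.645 for Ppl.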

How the data were processed

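The 192 hippocampal libraries, 1 per mouse, were deposited by the authors as a table of expected counts (estimated reads per gene), for which RSEM and the build GRCm38 are listed, per the submitters' processing notes. No aligner, version or annotation is named, so these are taken as not given in the sources used here. Every deposited value was a whole number, so none was rounded. Of 41135 features, 41128 carried an Ensembl gene identifier; the other 7, among them an Htt feature with the suffix HD, were left out of library sizes and tests. Names, positions, lengths and GC content came from GENCODE vM21, which held 40254 of the identifiers. Total counts ran from 15M to 32.9M (median 24.9M) with HTT-634.486 and from 16.5M to 33.8M (median 25M) with NTC. Pairs of libraries within these groups differed beyond sampling noise (chi-square per degree of freedom 4.65 to 41.8), and no library counted as a copy of another.

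The 64 libraries of the regimen were fitted together with edgeR 4.0.16 (filterByExpr by group, TMM, quasi-likelihood F test, terms for group and sex), and p-values were adjusted by Benjamini-Hochberg over all genes tested; a gene is called at an adjusted p under 0.05. Regimens were compared in a fit of all 192 libraries. Alternatives were DESeq2 1.42.0, limma-voom (limma 3.58.1), other scaling, filters, blocks, covariates and left-out libraries. Levels are TMM-scaled CPM, or its log2 after adding a prior count of 2. Choroid-high means a summed marker CPM over 3 times the median; choroid-linked means a Spearman rho of at least 0.6 with Ttr and Folr1. For the named genes, the 12 most raised and 12 most lowered called genes were taken with a mean log2 CPM of at least 1, the same sign in both sexes and no choroid link, with Htt, Ttr, Folr1 and up to 4 members per list and up to 5 genes per difference of smallest p. The comparison, its members and its 41 gene lists were chosen with earlier results of these data known. Mice of 1 group are taken as replicates; nothing states litters or batches. HTT-634.486 and NTC mice with the same replicate label had a mean correlation of deviations of 0.109, over 0.1 in 3 of 8 pairs. Whether the label pairs mice is not stated, and 8 pairs are too few to settle it. Mice of different groups with the same number in the library name had a correlation over 0.1 in 29 of 76 pairs (mean 0.0666), against 316 of 1716 pairs with other numbers (mean -0.0023); what the number marks is not stated.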

Additional observations from a re-analysis of the deposited data

Results flagged for a closer look

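Single mice stood apart from the other 7 of their group in 9 of 56 checks on named genes and the signature score, where chance alone flags about 1 in 20. Ttr and Folr1 were far higher in NTC male 4, at 2974 CPM (others 23.05 to 75.4) and 22.8 CPM (others 0.285 to 1.13). Male 4 given HTT-634.486, also choroid-high, stood apart in 3 called genes. It had the highest Bnip3l of its group (131.3 CPM, others 110.4 to 118.3), the lowest C1qb (39.9 CPM, others 50.1 to 59.6) and the lowest Col27a1 (6.69 CPM, others 8.59 to 10.3). In each of these it lay nearer to the NTC mice than the other 7 did, and without it 467 genes were called in place of 157. Female 2 given HTT-634.486 had the lowest Camkk2 (74.55 CPM, others 85.2 to 95.1).

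In the NTC group, male 4 had the highest Bnip3l (156.7 CPM, others 135.4 to 141.6), and male 1 the lowest C1qa (37.9 CPM, others 43.95 to 49.99) and the lowest Ipcef1 (40.3 CPM, others 44.9 to 48.9).

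Outside the gene tests, reads of the Htt entry whose identifier ends in HD were counted in zQ175 mice of 6[4]10. The 24 WT mice of that regimen that were given HTT-634.486, given NTC or left untreated held 0 reads. WT mice given HTT-10150 held 1 read. In 2.6[8]10, WT mice held 1 read with NTC and 2 when untreated. In zQ175 mice of 6[4]10 the entry summed to 41 reads when untreated and to 10 with HTT-10150. It summed to 9 reads with HTT-634.486 (in 4 of 8, at most 3) and to 19 with NTC (in 5 of 8, at most 7). Between these last 2 groups the exact permutation test of its CPM gave p = 0.264. What this entry covers is not stated, and so few reads leave a difference of that size undetectable.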

How the results depend on the processing

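Of 157 genes called in zQ175 mice, the count was 84 with no filter on low counts, 22 with the number in the library name as a block, 6 in a fit of female libraries only, 1 in a fit of male libraries only, 15 without the choroid-high libraries, 301 by DESeq2 and, chosen after the data were seen, 86 with the GC trend removed. It was 55 to 467 with 1 mouse left out. With the replicate label as a block it was 204, and whether that label pairs mice is not stated. In WT mice 4 calls became 11 with the choroid covariate, 12 by DESeq2, 7 with the GC trend removed and, also chosen later, 11 without choroid-high libraries. Against untreated mice 638 became 327 with no filter and 44 without choroid-high libraries. DESeq2 called 1 gene for the sex interaction and 1 for the difference from 2.6[8]10. The cause of these shifts was not tested. For Htt, leaving out 1 mouse gave differences of -8.98 to -2.90 CPM (exact permutation p 0.141 to 0.598). For Ttr they were 1.70 to 3.07 (exact permutation p 0.0351 to 0.242) and for Folr1 1.26 to 2.34 (exact permutation p 0.0305 to 0.237) on the log2 scale. No direction reversed for 29 called genes over 28 alternatives each, all of which reuse the same mice. The genes 0610010F05Rik, 2610002M06Rik, Bnip3l, Lag3 and Abhd3 were called in each of those alternatives. Depth limits genes of about 1 CPM, such as Clec7a.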
